A study of Mus musculus with 9 samples.

Results

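The mitochondrial ribosomal protein genes were taken as all rows of the count table whose mouse symbol begins with Mrpl or Mrps followed by a digit. The table held 51 such genes, 30 Mrpl and 21 Mrps, among 14052 rows. Of these 51 genes, 33 had enough counts to be tested and 18 did not. RNA was measured in 9 areas of renal cortex from mice of about 1 year on a normal diet. The 5 tumour areas, L4, R2, R3, R4 and R5, were labelled as kidney tumour of Vhl F/F Pbrm1 F/F Ksp-Cre mice on a mixed background of C57BL/6, BALB/c and 129. The 4 normal areas, L1, L2, R1 and R2, were labelled as cortex of wild-type C57BL/6 mice. Floxed Vhl encodes the substrate subunit of the ligase that marks HIF alpha proteins for destruction, and floxed Pbrm1 encodes a subunit of the PBAF chromatin remodelling complex. Cre was driven by the Ksp promoter, that of the tubule cadherin gene Cdh16, so that deletion is limited to cells that use this promoter.

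The mitochondrial ribosome, or mitoribosome, makes the few respiratory chain proteins that mitochondrial DNA encodes. Its RNAs come from mitochondrial DNA, while its proteins are encoded in the nucleus, made in the cytosol and imported. They divide into a large subunit, which joins amino acids and releases the new chain at the inner membrane, and a small subunit, which reads the mRNA. Many have a bacterial counterpart, and the others are found in mitochondria alone. Tubule cells of the renal cortex hold many mitochondria, since salt and solute uptake there runs on respiration. The comparison asked which of these transcripts differed between tumour and normal cortex.

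The areas were not shown to be separate animals. The sample descriptions carry 1 shared number in all tumour areas and another in all normal areas, so each group may come from 1 animal, and p-values measure the spread between areas. Strain and genotype cannot be told apart in this design. CPM is the count divided by the library total and scaled to per-million units. Except where called unscaled, the total was first multiplied by a TMM factor, explained below. The limits given next use the plain total. Total counts ran from 5143527 to 8250261 per area, at which 3 counts, the limit that a count of 0 allows, come to 0.364 to 0.583 CPM. Such limits cover counting error only. Vhl stood at 60.0 ± 11.95 CPM in tumour areas and 104 ± 4.69 CPM in normal areas (SD, n = 5 and 4; log2 fold change -0.79 ± 0.13, SE; edgeR adjusted p = 0.000248). Pbrm1 stood at 136 ± 21.5 CPM in tumour areas and 155 ± 10.1 CPM in normal areas, which did not pass the test (adjusted p = 0.142; 0.0336 without tumour L4 and 0.00459 without L4 and R5). Summed proximal tubule markers ran from 24559 to 45016 CPM in tumour areas and from 56317 to 58296 CPM in normal areas. Of the 11 tested, 10 were lower, beside 35.3% of all tested genes. Summed leukocyte markers ran from 1244 to 2924 CPM in tumour areas and from 90.2 to 118 CPM in normal areas. Summed cell division markers ran from 179 to 268 CPM in tumour areas and from 39.9 to 48.2 CPM in normal areas. Urothelium markers summed to between 16.7 and 1097 CPM in tumour areas and to between 0.830 and 5.18 CPM in normal areas. All 5 tested were higher (1 with limma-voom), beside 39.3% of all tested genes. The part of these cell types in the results below was not tested, and in bulk samples fewer cells of a type and less RNA per cell cannot be told apart.

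The mitoribosomal transcripts did not move together. In edgeR's quasi-likelihood test with Benjamini-Hochberg adjustment over all tested genes, 12 of the 33 tested genes were higher in tumour areas, 11 were lower and 10 did not pass at an adjusted p under 0.05. Among all 7020 tested genes 39.3% were higher and 35.3% were lower, so that 74.6% passed in one direction or the other. The mitoribosomal shares, 36.4% higher and 33.3% lower, were near that background. The median log2 fold change over the 33 genes was -0.00, beside 0.06 over all tested genes, and single genes ran from -1.19 to 0.76. The sizes were small: the median absolute log2 fold change was 0.34, beside 0.59 over all tested genes. Only Mrpl3 and Mrpl47 passed with a change of at least 2-fold, both downward, whereas 29.9% of all tested genes did so in one direction or the other. Of the 23 genes that passed, 18 changed by less than 1.5-fold, beside 1780 of the 5236 that passed among all tested genes. In 11 genes every tumour area lay above every normal area, and in 9 every tumour area lay below; the shares among all tested genes were 34.8% and 33.0%.

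The split between higher and lower depended on scaling. TMM factors, which correct for a shift in composition, were 1.04 to 1.17 in tumour areas and 0.89 to 0.90 in normal areas. With library size alone the median over all tested genes moved to 0.35, a shift of 0.29, and the mitoribosomal median moved to 0.29. Under that scaling 18 mitoribosomal genes were called higher and 3 lower, and among all genes 3735 were higher and 1689 lower in place of 2760 and 2476. Changes are therefore given relative to the bulk of the transcriptome.

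**Figure D1:**
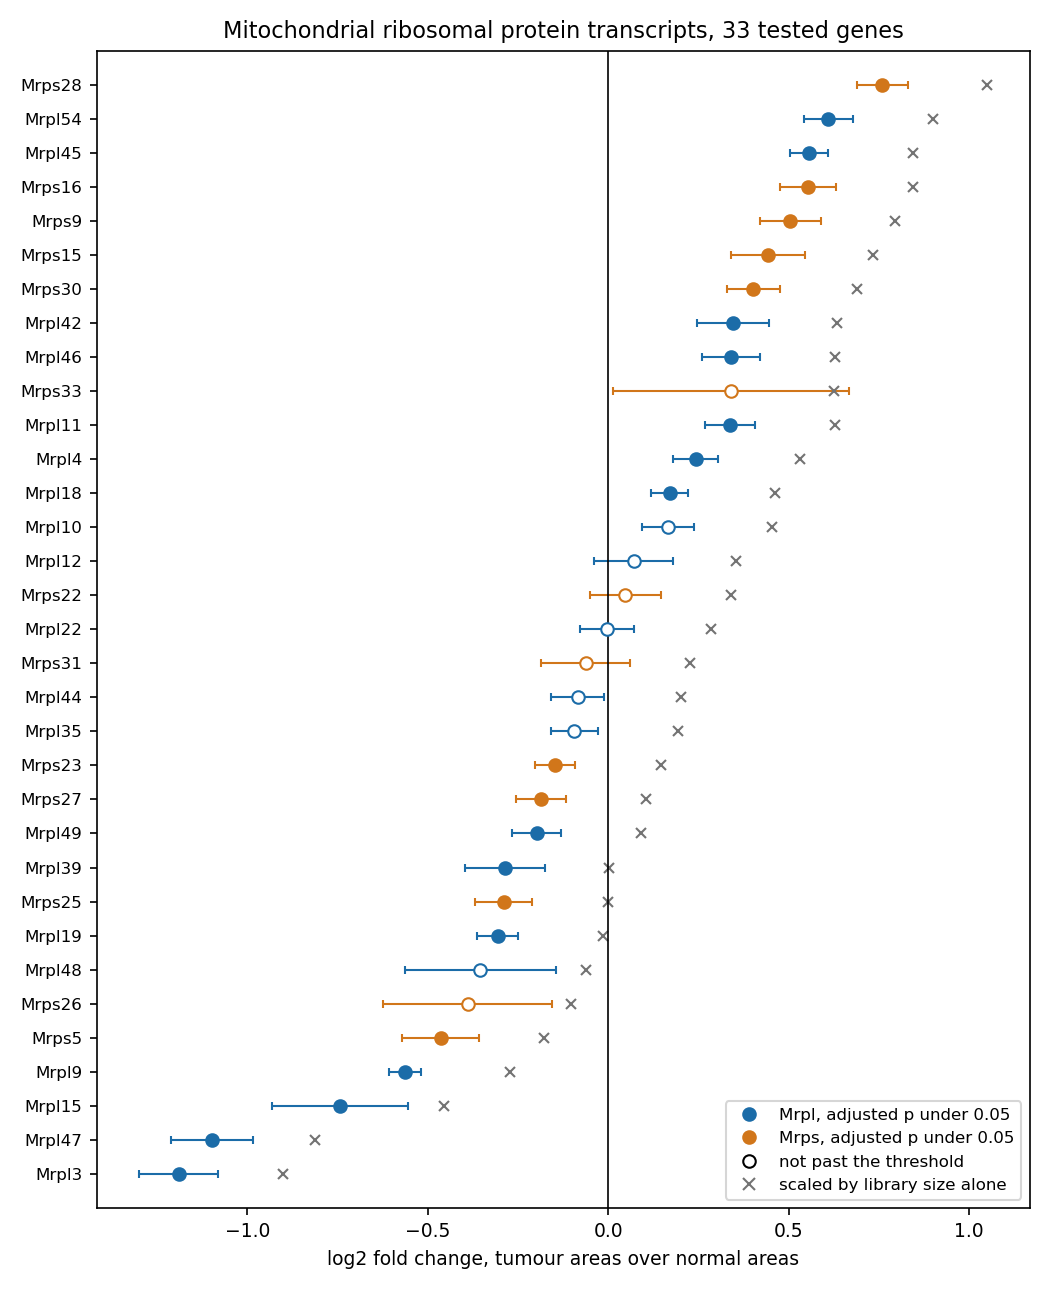
Log2 fold change of tumour over normal areas (x axis) for the 33 tested genes (y axis), with SE bars; blue is Mrpl, orange is Mrps, filled points passed at an adjusted p under 0.05 and grey crosses give the value with library size alone. The genes run from -1.19 (Mrpl3) to 0.76 (Mrps28). The grey crosses lie to the right of the points and carry several genes across 0, among them Mrpl49, Mrpl39, Mrps23, Mrps25 and Mrps27.

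Mrpl3 and Mrpl47 had the largest decreases among the tested genes, and Mrpl9 had the smallest adjusted p of all the decreases. Mrpl3 (ENSMUSG00000032563), the uL3 protein that reaches toward the peptidyl transferase centre, stood at 8.63, 9.73, 9.26, 8.86 and 8.98 CPM in tumour areas L4, R2, R3, R4 and R5, against 23.6, 19.8, 17.8 and 22.1 CPM in normal areas L1, L2, R1 and R2. The 5 tumour areas lay close together and all below the normal areas. The difference was 2.28-fold downward (log2 -1.19 ± 0.11, SE; edgeR adjusted p = 4.54e-06). Mrpl47 (ENSMUSG00000037531), the uL29 protein beside the exit of the polypeptide tunnel, stood at 23.5, 20.1, 28.9, 29.0 and 26.3 CPM in tumour areas and at 60.4, 50.6, 56.0 and 52.4 CPM in normal areas. Every tumour area had less than the lowest normal area. Mrpl47 was 2.14-fold lower (log2 -1.10 ± 0.11, adjusted p = 9.75e-06). It has 2 annotated pseudogene copies, and 1068 of its exon bases overlap Actl6a, which had 0 counts, and Ndufb5, which was not analysed here, both on the other strand. Exons of Mrpl3 overlap predicted genes over 272 bases, and those of Mrpl9 overlap Oaz3, which had 1 count, over 157 bases. Mrpl9 (ENSMUSG00000028140), the bL9 protein on the flank of the large subunit, was far more abundant at 134, 124, 134, 131 and 135 CPM in tumour areas and 194, 194, 189 and 201 CPM in normal areas. Its areas varied little in either group and did not overlap between groups. It was 1.48-fold lower (log2 -0.56 ± 0.04, adjusted p = 1.53e-06). These 3 decreases passed under every alternative processing that was run.

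Other bacterial-type proteins of the large subunit went both ways. Mrpl15, the uL15 protein of the subunit core, averaged 3.28 ± 0.241 CPM in tumour areas and 5.54 ± 1.46 CPM in normal areas (log2 -0.74 ± 0.19, adjusted p = 0.00455), with normal R2 at 7.69 CPM and the other normal areas at 4.64 to 5.19 CPM. With library size alone it missed the threshold (-0.45, adjusted p = 0.0517). Mrpl19, the bL19 protein at the subunit interface, averaged 62.8 ± 2.05 CPM in tumour areas and 77.7 ± 4.48 CPM in normal areas (log2 -0.31 ± 0.06, adjusted p = 0.000663), and it lost its call with library size alone (-0.02, adjusted p = 0.838). Mrpl4, the uL4 protein that lines the exit tunnel, went the other way, at 130.1 ± 10.1 CPM in tumour areas and 110.0 ± 2.304 CPM in normal areas (log2 0.24 ± 0.06, adjusted p = 0.00457). Mrpl22, the uL22 protein of the same tunnel wall, stood at 36.7 ± 1.88 CPM in tumour areas and 36.8 ± 2.48 CPM in normal areas (adjusted p = 0.967). Mrpl35, the bL35 protein, stood at 88.1 to 109 CPM in tumour areas and 105 to 108 CPM in normal areas (adjusted p = 0.207), so that R4 lay above the narrow normal range and the other tumour areas lay below it.

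The stalk, where translation factors dock, is built from Mrpl10, Mrpl11 and Mrpl12. Mrpl11, the uL11 protein at the stalk base, was higher at 54.1 ± 3.38 CPM in tumour areas than at 42.8 ± 2.08 CPM in normal areas (log2 0.34 ± 0.07, adjusted p = 0.00125). Mrpl12 (ENSMUSG00000039640), which forms the tip of the stalk and has been reported to bind the mitochondrial RNA polymerase, stood at 138, 183, 201, 212 and 189.6 CPM in tumour areas and at 180.0, 161, 183 and 179.8 CPM in normal areas. Tumour L4 had less than any normal area and the other tumour areas had as much as the highest normal area or more. The groups did not differ by the test (log2 0.07 ± 0.11, adjusted p = 0.573), but without tumour L4 the difference was 0.17 and passed (adjusted p = 0.0267). Mrpl10, which anchors Mrpl12, stood at 164, 201, 193, 213 and 195 CPM in tumour areas and at 172, 166, 169 and 180.4 CPM in normal areas. L4 was again below the normal areas. Mrpl10 missed the threshold with all areas (log2 0.17 ± 0.07, adjusted p = 0.0573) and passed without L4 (0.23, adjusted p = 0.00158).

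The central protuberance, the crest of the large subunit that faces the tRNAs, includes Mrpl18, Mrpl46 and Mrpl48. Mrpl46 averaged 39.6 ± 3.25 CPM in tumour areas and 31.3 ± 1.05 CPM in normal areas (log2 0.34 ± 0.08, adjusted p = 0.00293). Mrpl18 averaged 115 ± 4.22 CPM in tumour areas and 103 ± 4.85 CPM in normal areas (log2 0.17 ± 0.05, adjusted p = 0.0111), and without normal R1 it fell just outside the threshold (0.13, adjusted p = 0.0502). Its exons overlap those of Tcp1 on the other strand, which was also higher (log2 0.29, adjusted p = 0.0147), and the library kit does not mark strand. Mrpl48 stood at 3.36 to 7.15 CPM in tumour areas and 5.84 to 7.09 CPM in normal areas (log2 -0.35 ± 0.21, adjusted p = 0.147). Only tumour R5 was not below the normal areas, and without R5 the difference passed (-0.51, adjusted p = 0.0263). Mrpl48 is an uncertain measurement, with 44 annotated pseudogene copies and 708 exon bases shared with Rab6a on the other strand, which was lower (log2 -0.96, adjusted p = 1.55e-07).

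The proteins of the large subunit that have no bacterial counterpart held 2 of the largest increases. Mrpl54 (ENSMUSG00000034932), a small mitochondrion-specific protein, stood at 102, 114, 112, 119 and 104 CPM in tumour areas and at 67.5, 70.1, 79.4 and 71.1 CPM in normal areas. The lowest tumour area was well above the highest normal area. Mrpl54 was 1.53-fold higher (log2 0.61 ± 0.07, adjusted p = 1.58e-05). Mrpl45 (ENSMUSG00000018882), which lies at the tunnel exit and in the human mitoribosome holds it to the inner membrane, stood at 149.5, 172, 167, 167 and 159 CPM in tumour areas and at 108, 109, 116 and 110.3 CPM in normal areas. Its groups were likewise apart. Mrpl45 was 1.47-fold higher (log2 0.56 ± 0.05, adjusted p = 5.38e-06), and 1 pseudogene copy of 91.5% identity is annotated. Mrps30, which despite its symbol sits in the large subunit, averaged 96.0 ± 8.97 CPM in tumour areas and 72.6 ± 2.89 CPM in normal areas (log2 0.40 ± 0.07, adjusted p = 0.0006). Mrpl42 had 35.2 CPM in tumour L4 and from 45.0 to 48.5 CPM in R2 to R5, against 33.1 to 37.2 CPM in normal areas, so that L4 alone overlapped the normal range (log2 0.35 ± 0.10, adjusted p = 0.00946).

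Other mitochondrion-specific proteins of the large subunit were lower or did not pass. Mrpl49 averaged 168 ± 15.4 CPM in tumour areas and 193 ± 4.41 CPM in normal areas (log2 -0.20 ± 0.07, adjusted p = 0.0222), with L4 and R5 at 154 and 149 CPM and R2 to R4 at 175 to 185 CPM. Mrpl49 lost its call under 6 of the 19 alternatives, among them the fits without tumour R5 (-0.15, adjusted p = 0.0521), without normal L2 (-0.20, adjusted p = 0.0512) and without L4 and R5 (-0.09, adjusted p = 0.0731). Mrpl39 averaged 15.9 ± 1.86 CPM in tumour areas and 19.5 ± 1.58 CPM in normal areas (log2 -0.29 ± 0.11, adjusted p = 0.0386), with overlapping groups, and it lost its call under 12 of the 19 alternatives. These include leaving out any one of tumour L4, R2, R3 and R5 and normal L1, R1 and R2, with adjusted p of 0.0646 to 0.0913. With library size alone both genes turned to the positive side, at 0.09 for Mrpl49 and 0.00 for Mrpl39. Mrpl44, which carries an RNase III-like fold, stood at 99.7 ± 9.38 CPM in tumour areas and 106 ± 4.83 CPM in normal areas (log2 -0.08 ± 0.07, adjusted p = 0.308). Its antisense neighbour Wdfy1, which shares 126 exon bases with it, was higher by 2.35 on the log2 scale (adjusted p = 2.48e-08).

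**Figure D2:**
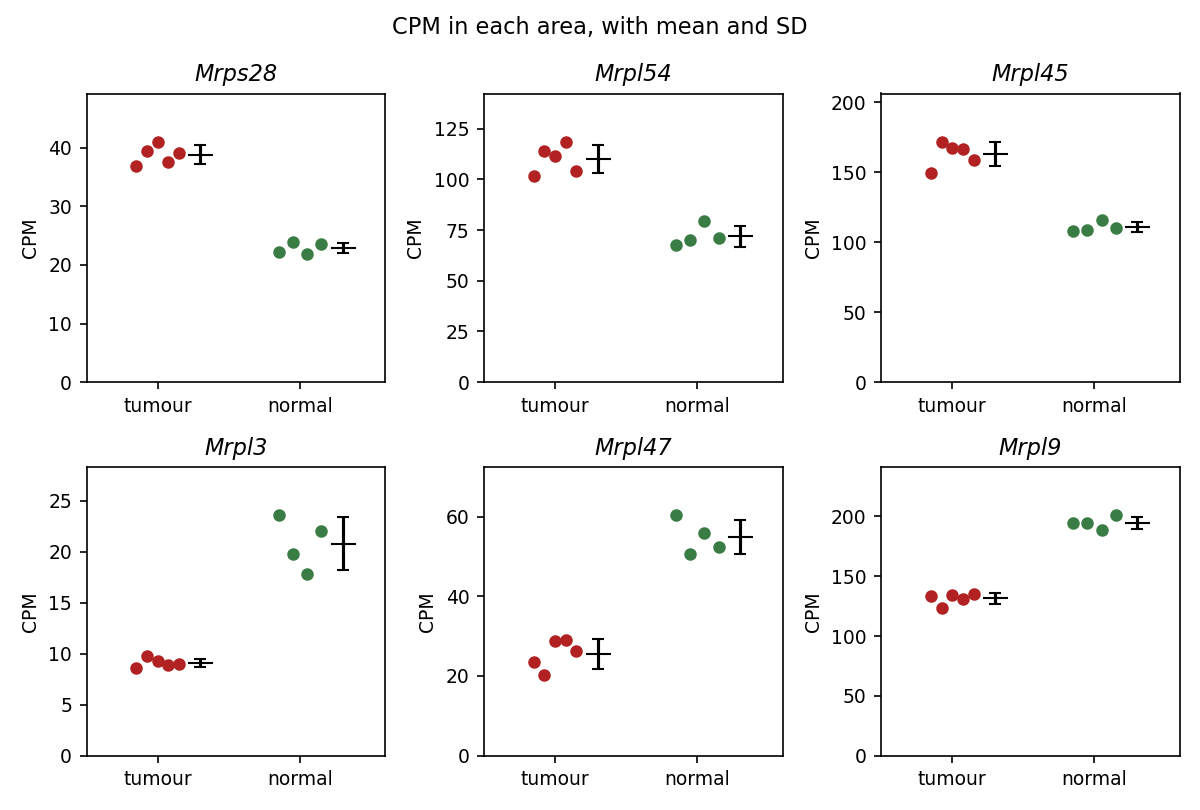
CPM in each area (points) for 6 genes, with tumour areas left in red, normal areas right in green and the mean ± SD beside them; each y axis starts at 0. The groups do not overlap in any of the 6 genes, with Mrps28, Mrpl54 and Mrpl45 higher and Mrpl3, Mrpl47 and Mrpl9 lower in tumour areas.

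In the small subunit 4 of the 5 tested genes with bacterial counterparts were higher, beside 39.3% of all tested genes. This split by subunit and ancestry was noticed after the values were seen. Mrps28 (ENSMUSG00000040269), the bS1-like protein, had the largest increase, at 36.9, 39.4, 41.0, 37.6 and 39.1 CPM in tumour areas and 22.3, 23.9, 21.9 and 23.5 CPM in normal areas. Neither group spread by more than a few CPM, and they were far apart. Mrps28 was 1.69-fold higher (log2 0.76 ± 0.07, adjusted p = 5.01e-06). Mrps16 (ENSMUSG00000049960), the bS16 protein, stood at 54.0, 61.6, 57.7, 57.4 and 56.3 CPM in tumour areas and at 34.6, 38.6, 39.4 and 43.7 CPM in normal areas. It was 1.47-fold higher (log2 0.55 ± 0.08, adjusted p = 9.07e-05), with 2 annotated pseudogene copies of up to 96.3% identity. Mrps9, the uS9 protein whose tail reaches the peptidyl site, averaged 41.7 ± 3.10 CPM in tumour areas and 29.4 ± 2.25 CPM in normal areas (log2 0.51 ± 0.08, adjusted p = 0.000315). Mrps15, the uS15 protein, averaged 15.6 ± 0.485 CPM in tumour areas and 11.4 ± 1.22 CPM in normal areas (log2 0.44 ± 0.10, adjusted p = 0.00255). Mrps5, the uS5 protein near the mRNA entry, was the one that was lower, at 34.7 ± 4.47 CPM in tumour areas and 47.9 ± 4.11 CPM in normal areas (log2 -0.46 ± 0.11, adjusted p = 0.00247), and it missed the threshold with library size alone (-0.18, adjusted p = 0.0966).

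Of the 7 tested mitochondrion-specific genes of the small subunit 3 were lower and 4 did not pass, where 35.3% of all tested genes were lower. Mrps25 averaged 33.0 ± 2.64 CPM in tumour areas and 40.3 ± 1.79 CPM in normal areas (log2 -0.29 ± 0.08, adjusted p = 0.00678). It shares 4590 exon bases with Nr2c2 on the other strand, which was lower too (log2 -0.72, adjusted p = 8.09e-07). Mrps27, an RNA-binding protein of the pentatricopeptide repeat class, averaged 71.1 ± 4.61 CPM in tumour areas and 81.0 ± 5.56 CPM in normal areas (log2 -0.19 ± 0.07, adjusted p = 0.029). Mrps23 averaged 84.0 ± 4.01 CPM in tumour areas and 93.1 ± 4.03 CPM in normal areas (log2 -0.15 ± 0.05, adjusted p = 0.0312). These 3 small decreases turned positive with library size alone, at 0.00, 0.10 and 0.15 in the same order, and Mrps23 and Mrps27 lost their calls under 9 and 8 of the 19 alternatives. Mrps23 lost its call without tumour R2, R3 or R4 or normal L1 or L2 (adjusted p of 0.0508 to 0.0835), and Mrps27 without tumour L4 or R5 or normal L1 or R1 (0.0525 to 0.0894). Mrps22, Mrps26, Mrps31 and Mrps33 did not pass, with log2 fold changes of 0.05, -0.39, -0.06 and 0.34. Mrps31 reached 30.3 CPM in tumour R4, where the remaining tumour areas had 23.2 to 24.5 CPM, against 20.9 to 29.5 CPM in normal areas.

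The counts in this paragraph stand beside 39.3% higher and 35.3% lower among all tested genes. Grouped by symbol, 7 of 20 tested Mrpl genes were higher and 7 were lower, with a median log2 fold change of -0.04. Of 13 tested Mrps genes 5 were higher and 4 were lower, with a median of 0.05. Counting Mrps30 with the large subunit, where structures place it, gave 8 higher and 7 lower of 21 large subunit genes, and 4 higher and 4 lower of 12 small subunit genes. Of 17 tested bacterial-type genes 7 were higher and 6 lower (median 0.07), and of 16 tested mitochondrion-specific genes 5 were higher and 5 lower (median -0.07). Crossing subunit with ancestry, a split noticed after the values were seen and therefore only described, gave opposite patterns in the 2 subunits. In the large subunit 3 of 12 bacterial-type genes were higher and 5 lower (median -0.05), and 5 of 9 mitochondrion-specific genes were higher and 2 lower (median 0.34). In the small subunit the medians were 0.51 for the 5 bacterial-type and -0.15 for the 7 mitochondrion-specific genes. With library size alone the Mrps genes gave 6 higher and 0 lower, also 0 at an unadjusted p under 0.05, where DESeq2 gave 5 higher and 4 lower. All 7020 tested genes gave 3735 higher and 1689 lower with library size alone, and 2651 and 2539 in DESeq2.

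The summed level of all 51 genes, untested ones included, was close in both groups, at 2214 ± 126 CPM in tumour areas and 2162 ± 26.3 CPM in normal areas. By area the sum stood at 2005, 2226, 2276, 2341 and 2224 CPM in tumour L4, R2, R3, R4 and R5, and at 2179, 2126, 2158 and 2183 CPM in normal L1, L2, R1 and R2. Tumour L4 was below all normal areas and the other tumour areas were above them. Mrpl genes summed to 1692 ± 107 CPM in tumour areas and 1674 ± 29.5 CPM in normal areas, and Mrps genes to 522 ± 20.7 CPM in tumour areas and 488 ± 11.8 CPM in normal areas. As a plain share of counted reads, without the TMM factors, the 51 genes took 2415 ± 55.5 unscaled CPM in tumour areas and 1932 ± 31.7 unscaled CPM in normal areas. On that scale tumour L4, at 2333 unscaled CPM, lay above the normal areas, at 1889 to 1958 unscaled CPM.

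Among the tumour areas L4 stood lowest in 22 of the 33 genes and highest in 0. R4 was highest in 13 genes, R2 in 9, R5 in 6 and R3 in 5. Urothelium markers summed to 1097 CPM in L4 and 198 CPM in R5, and to 16.7 to 61.8 CPM in R2, R3 and R4; the part of those cells in the L4 values was not tested. Without L4 and R5 the counts were 14 higher and 9 lower, in place of 12 and 11. Over all tested genes that fit gave slightly fewer higher and slightly more lower than the 2760 and 2476 with all areas. The difference between the members and all tested genes was not tested.

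**Figure D3:**
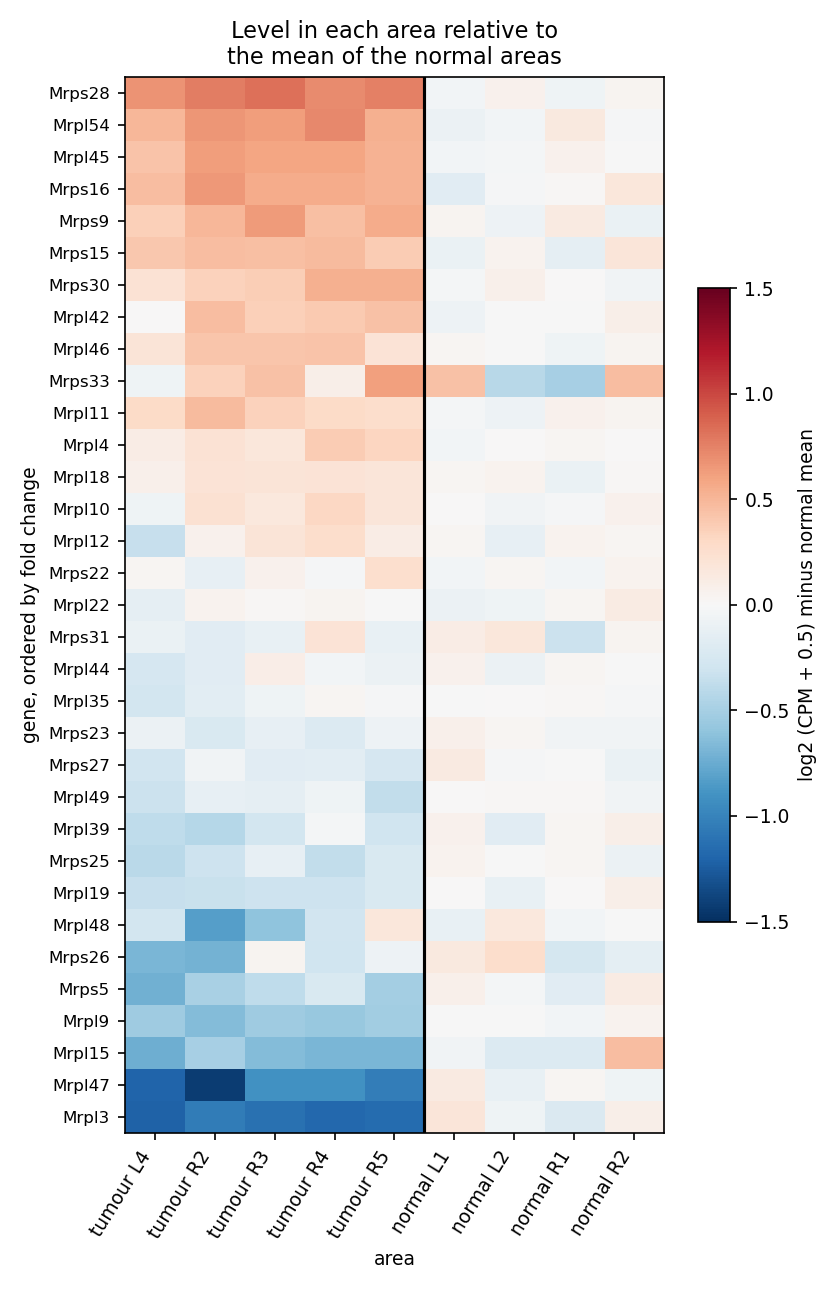
Level of each tested gene (rows, ordered by fold change) in each area (columns, tumour areas left of the line), as log2 (CPM + 0.5) minus the mean of the normal areas; red is above and blue below that mean. Mrps28 and Mrpl54 at the top are red and Mrpl3 and Mrpl47 at the bottom are blue in all 5 tumour areas, while the colours grow paler toward the middle rows.

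Ratios of counts between 2 genes of the same area do not depend on scaling. The 5 pairs below were chosen after the values were seen and are given as a description. Counts of Mrps28 were 1.30 to 1.96 times those of Mrpl47 in tumour areas and 0.369 to 0.472 times in normal areas. Counts of Mrpl54 were 11.6 to 13.4 times those of Mrpl3 in tumour areas and 2.86 to 4.47 times in normal areas. Counts of Mrpl45 were 1.12 to 1.39 times those of Mrpl9 in tumour areas and 0.549 to 0.613 times in normal areas. The means of these ratios differed by 3.68-fold, 3.44-fold and 2.18-fold between the groups, a separation that the choice of pairs favours. Within the small subunit, counts of Mrps9 were 0.986 to 1.31 times those of Mrps5 in tumour areas and 0.527 to 0.758 times in normal areas. Counts of Mrps16 were 1.57 to 1.90 times those of Mrps25 in tumour areas and 0.825 to 1.16 times in normal areas.

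**Figure D4:**
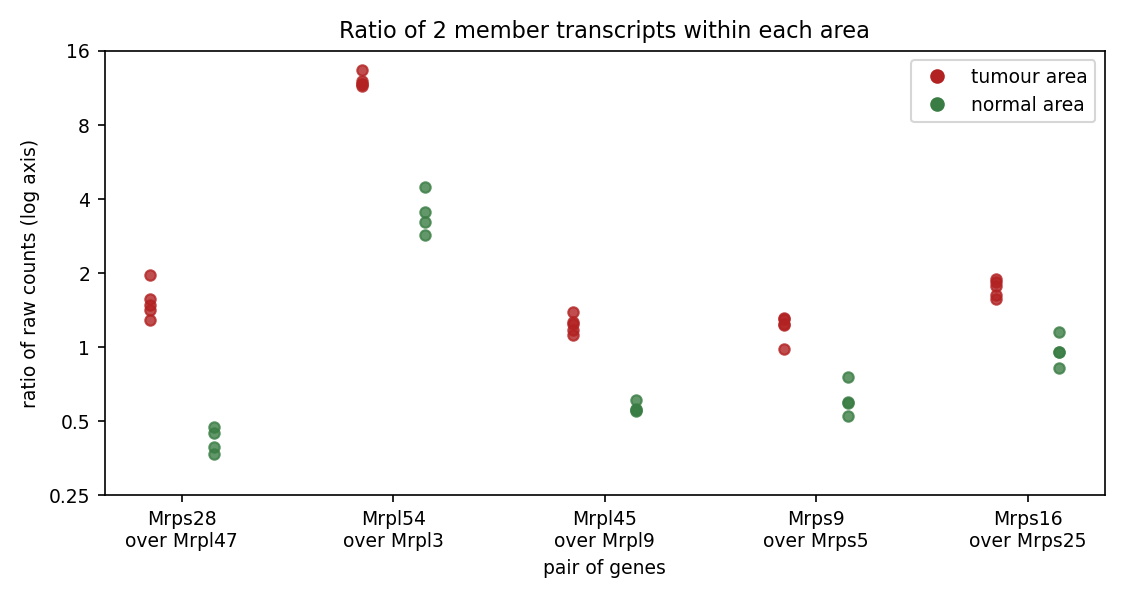
Ratio of raw counts of 1 gene over another in each area (y axis, log scale) for 5 pairs (x axis), with tumour areas in red left of normal areas in green. The groups are apart in every pair, from 11.6 to 13.4 in tumour areas against 2.86 to 4.47 in normal areas for Mrpl54 over Mrpl3.

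Per kilobase of transcript, the most abundant of the 33 genes in normal areas were Mrpl49, Mrpl10, Mrps23, Mrpl4 and Mrpl12. Their levels were 128 CPM per kb in tumour areas and 147 in normal areas for Mrpl49, and 157 in tumour areas and 140.3 in normal areas for Mrpl10. For Mrps23 they were 126 in tumour areas and 139.7 in normal areas. For Mrpl4 they were 159.7 in tumour areas and 135 in normal areas, and for Mrpl12 140.4 in tumour areas and 134 in normal areas. In tumour areas Mrpl54 was the highest, at 182 CPM per kb, against 119 in normal areas. The lowest were Mrps26 at 0.706 CPM per kb in tumour areas and 0.917 in normal areas, Mrps33 at 2.94 in tumour areas and 2.40 in normal areas, and Mrpl15 at 1.73 in tumour areas and 2.93 in normal areas. Mrps25 stood at 5.44 CPM per kb in tumour areas and 6.64 in normal areas, and Mrpl48 at 5.72 in tumour areas and 7.33 in normal areas. Genes with several annotated transcripts are uncertain on this scale.

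Of the 18 genes that were not tested, 11 had no count in any of the 9 areas. These were Mrpl2, Mrpl13, Mrpl17, Mrpl23, Mrpl55, Mrpl58, Mrps10, Mrps11, Mrps18a, Mrps18b and Mrps21. They include proteins of the ribosomal core such as Mrpl2 and Mrps11, and Mrpl58, a peptidyl-tRNA hydrolase built into the large subunit. The other 7 had a total over the 9 areas of 25 counts (Mrpl1), 14 (Mrps36), 6 (Mrps18c), 4 (Mrpl20), 4 (Mrpl37), 1 (Mrpl24) and 1 (Mrps35). Since a working mitoribosome holds most of these proteins, a count of 0 is given here as a value of the table and not as absence of the transcript. The genes with at most 3 counts in all, 13 of the 51, had a median of 6 annotated transcripts, and the other 38 had a median of 3. Over all protein-coding rows the medians went the other way, 4 for the 4815 genes with at most 3 counts and 5 for the 9143 genes with more. The 3 Mrps18 paralogs, which occupy different places in the mitoribosome, therefore gave no comparison. Mrps36, which was named with the ribosome and is now known as a part of the 2-oxoglutarate dehydrogenase complex, has 9 annotated pseudogene copies. Mrpl41 and Mrps12 were not analysed here.

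Of the 51 genes 44 were matched to a RefSeq promoter (GRCm38.p6), covering 250 bases before to 50 bases after the start. The promoters of 2 increased and 2 decreased genes are shown, those with the largest changes among the matched genes, so that both directions can be set side by side (Mrps28 and Mrpl54 were not matched). Capitals mark the letters of the motifs found: GCGTG, a core of the hypoxia response element that HIF proteins bind, also where it reads CACGC from the other strand, and CCGGAAGT, a site form of ETS factors such as GABPA. Mrpl45 lies at chr11:97315466-97315765 on the plus strand, Mrps16 at chr14:20393441-20393740 on the minus strand (the first of 2 listed starts), Mrpl3 at chr9:105053018-105053317 on the plus strand and Mrpl47 at chr3:32736706-32737005 on the minus strand. The promoters of the increased genes come first.
Mrpl45: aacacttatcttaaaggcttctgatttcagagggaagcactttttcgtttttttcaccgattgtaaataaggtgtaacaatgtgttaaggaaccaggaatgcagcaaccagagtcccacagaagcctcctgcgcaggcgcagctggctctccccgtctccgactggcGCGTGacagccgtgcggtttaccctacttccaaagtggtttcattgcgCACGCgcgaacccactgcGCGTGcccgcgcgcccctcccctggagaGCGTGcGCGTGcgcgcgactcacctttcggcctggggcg
Mrps16: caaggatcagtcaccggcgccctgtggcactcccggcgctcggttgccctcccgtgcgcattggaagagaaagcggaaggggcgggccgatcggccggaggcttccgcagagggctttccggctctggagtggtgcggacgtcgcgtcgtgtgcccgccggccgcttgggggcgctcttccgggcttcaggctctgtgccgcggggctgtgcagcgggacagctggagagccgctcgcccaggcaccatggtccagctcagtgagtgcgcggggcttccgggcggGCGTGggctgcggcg
Mrpl3: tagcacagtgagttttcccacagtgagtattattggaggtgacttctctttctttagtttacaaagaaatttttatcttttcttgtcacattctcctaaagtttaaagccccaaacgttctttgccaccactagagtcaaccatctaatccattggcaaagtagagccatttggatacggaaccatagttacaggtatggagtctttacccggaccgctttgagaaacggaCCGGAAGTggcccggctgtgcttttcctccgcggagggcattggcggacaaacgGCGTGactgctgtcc
Mrpl47: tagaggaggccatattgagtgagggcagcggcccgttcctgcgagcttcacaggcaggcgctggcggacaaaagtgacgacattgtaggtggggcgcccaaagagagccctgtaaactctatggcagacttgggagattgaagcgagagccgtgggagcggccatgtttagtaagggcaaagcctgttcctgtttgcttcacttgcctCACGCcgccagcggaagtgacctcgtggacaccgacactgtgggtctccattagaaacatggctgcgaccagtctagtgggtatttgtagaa

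Mrpl45 held 5 matches to GCGTG, whereas Mrps16, Mrpl3 and Mrpl47 held 1 each, and Mrpl3 also held CCGGAAGT. Both strands were searched. GCGTG was in 22 of the 44 promoters, against 32.5% of the 27025 genes with a promoter. The other hypoxia core, ACGTG, was in 8 of 44, against 19.7%. GCGCATGCG, a site form of NRF1, a factor known for driving nuclear genes of mitochondria, was in 6 of 44 (Mrpl9, Mrpl10, Mrpl17, Mrpl22, Mrpl39 and Mrps18b), against 1.81%. CCGGAAGT was in 6 of 44 (Mrpl3, Mrpl18, Mrps18c, Mrps22, Mrps26 and Mrps27), against 4.0%. AAGATGGC, the form bound by YY1, was in 7 of 44 (Mrpl35, Mrpl37, Mrpl42, Mrpl49, Mrps11, Mrps18a and Mrps27), against 2.88%. CACGTG, the E-box bound by MYC and its antagonists, which contains ACGTG, was in 4 of 44, against 7.24%. A match is only a match of letters, and promoters of active genes share base composition. By direction, GCGTG was in 4 of the 9 promoters of genes that were higher, in 6 of the 9 of genes that were lower and in 5 of the 10 of tested genes that did not pass. NRF1 letters were in 0, 2 and 2 of these promoters, CCGGAAGT in 1, 2 and 2, and AAGATGGC in 1, 2 and 1, in the same order.

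Of 10 tested regulators of such genes 7 were lower and 2 higher, beside 35.3% and 39.3% of all tested genes. With library size alone 5 were lower and 3 higher, beside 1689 lower and 3735 higher of all 7020 tested genes. Ppargc1a, the coactivator that drives mitochondrial gene programs, stood at 146 ± 24.5 CPM in tumour areas and 251 ± 10.9 CPM in normal areas (log2 -0.78 ± 0.11, adjusted p = 0.000109). Its relative Ppargc1b went the other way, at 14.0 ± 3.51 CPM in tumour areas and 7.51 ± 0.956 CPM in normal areas (log2 0.90 ± 0.19, adjusted p = 0.00171). Gabpa stood at 105 ± 9.62 CPM in tumour areas and 134 ± 7.19 CPM in normal areas (log2 -0.35 ± 0.07, adjusted p = 0.00115). Yy1 stood at 147 ± 5.76 CPM in tumour areas and 167 ± 2.73 CPM in normal areas (log2 -0.18 ± 0.04, adjusted p = 0.00431), a decrease that turned to 0.11 with library size alone. Nrf1 stood at 8.28 ± 1.15 CPM in tumour areas and 7.08 ± 0.632 CPM in normal areas and did not pass (log2 0.23 ± 0.14, adjusted p = 0.171). Hcfc1, a chromatin cofactor of such factors, stood at 4.79 ± 1.27 CPM in tumour areas and 9.72 ± 1.12 CPM in normal areas (log2 -1.02 ± 0.20, adjusted p = 0.000834).

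Factors tied to Vhl loss and growth control were in the same list. The transcripts of the HIF alpha genes Hif1a and Epas1 were lower, by log2 fold changes of -1.09 ± 0.09 and -0.76 ± 0.06 (adjusted p = 2.84e-06 and 2.5e-06). HIF activity is set largely at the level of the protein, which was not measured. Mxi1, a MYC antagonist that HIF is known to induce, stood at 387 ± 52.4 CPM in tumour areas and 299 ± 2.84 CPM in normal areas (log2 0.37 ± 0.09, adjusted p = 0.00398). Mtor, the growth kinase, was lower as well (log2 -1.02 ± 0.12, adjusted p = 2.72e-05).

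The rest of the mitochondrial translation machinery also held genes of both directions. The counts for this list and the lists that follow stand beside 39.3% higher and 35.3% lower among all tested genes. Of 3 tested mitoribosomal proteins with other names, Chchd1 of the small subunit was higher, at 76.9 ± 8.28 CPM in tumour areas and 60.6 ± 2.08 CPM in normal areas (log2 0.34 ± 0.08, adjusted p = 0.00297). Ptcd3, an RNA-binding protein of the small subunit, was lower, at 23.8 ± 3.06 CPM in tumour areas and 34.4 ± 2.97 CPM in normal areas (log2 -0.53 ± 0.11, adjusted p = 0.00119). Dap3, a GTP-binding protein of the small subunit, stood at 10.9 ± 2.42 CPM in tumour areas and 12.1 ± 1.66 CPM in normal areas (adjusted p = 0.476), and Aurkaip1 had 0 counts. Of 6 tested translation factors only Mtfmt passed, the enzyme that formylates the initiator methionyl-tRNA, at 15.2 ± 1.63 CPM in tumour areas and 8.36 ± 0.676 CPM in normal areas (log2 0.85 ± 0.12, adjusted p = 8.72e-05). Lower were 0 of the 6 in edgeR, with 0 at an unadjusted p under 0.05, and 0 in DESeq2, with 1 at an unadjusted p under 0.05. Among the edgeR alternatives 2 were lower with the area letter as a covariate, and 1 was lower with letter R only and without tumour R3, tumour R4 or normal L1. Tufm, the elongation factor that brings tRNAs, had 22 counts in all and was not tested.

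Of 12 tested genes of mitoribosome assembly and rRNA modification 5 were higher and 2 lower. Rpusd4, a pseudouridine synthase of the large rRNA, stood at 34.2 ± 3.08 CPM in tumour areas and 19.4 ± 0.505 CPM in normal areas (log2 0.82 ± 0.09, adjusted p = 1.23e-05). Mtg1, a GTPase of large subunit assembly, stood at 4.65 ± 0.873 CPM in tumour areas and 2.57 ± 0.340 CPM in normal areas (log2 0.84 ± 0.20, adjusted p = 0.0029). Fastkd2, an RNA-binding protein needed for the large subunit, was lower at 3.60 ± 1.43 CPM in tumour areas and 9.87 ± 1.24 CPM in normal areas (log2 -1.45 ± 0.25, adjusted p = 0.000368). Ybey, an rRNA endonuclease, was lower at 21.8 ± 2.99 CPM in tumour areas and 37.8 ± 2.65 CPM in normal areas (log2 -0.79 ± 0.11, adjusted p = 7.83e-05).

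Of 11 tested enzymes that charge mitochondrial tRNAs 2 were higher and 4 lower. Fars2, for phenylalanine, stood at 67.3 ± 8.30 CPM in tumour areas and 49.3 ± 2.74 CPM in normal areas (log2 0.45 ± 0.10, adjusted p = 0.00158), and Aars2, for alanine, at 41.1 ± 2.34 CPM in tumour areas and 30.9 ± 2.58 CPM in normal areas (log2 0.41 ± 0.08, adjusted p = 0.000954). Lars2, for leucine, stood at 2173 ± 335 CPM in tumour areas and 4248 ± 839 CPM in normal areas (log2 -0.97 ± 0.15, adjusted p = 0.000196). In tumour areas that was about the level of the 51 mitoribosomal genes summed. The next highest tested gene of this list, Gatc, stood at 119 CPM in tumour areas and 140 CPM in normal areas. Whether all reads counted for Lars2 came from its own transcript was not tested. Gatb, of the amidotransferase that makes glutaminyl-tRNA, stood at 13.9 ± 3.30 CPM in tumour areas and 25.1 ± 2.19 CPM in normal areas (log2 -0.85 ± 0.17, adjusted p = 0.00119). Of 4 tested genes of mitochondrial DNA copying and transcription only Polg, the DNA polymerase, was higher, at 8.01 ± 0.897 CPM in tumour areas and 5.78 ± 1.30 CPM in normal areas (log2 0.47 ± 0.17, adjusted p = 0.0318), and it lost its call under 7 of the 19 alternatives, among them DESeq2 and the fit without tumour L4. The 13 mRNAs that mitochondrial DNA encodes, which this ribosome reads, were not analysed here.

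Genes of general mitochondrial content were no more uniform. Of 11 tested, 3 were higher and 4 lower, with a median of -0.06. Cs, citrate synthase, stood at 1119 ± 69.3 CPM in tumour areas and 1170 ± 21.8 CPM in normal areas (adjusted p = 0.374). Tomm22 and Tomm20, receptors of the same import complex, moved apart: Tomm22 stood at 28.6 ± 1.97 CPM in tumour areas and 19.6 ± 2.66 CPM in normal areas (log2 0.54, adjusted p = 0.000934), and Tomm20 at 198 ± 26.0 CPM in tumour areas and 404 ± 14.2 CPM in normal areas (log2 -1.03 ± 0.09, adjusted p = 3.01e-06). Vdac2, a pore of the outer membrane, stood at 66.1 ± 5.66 CPM in tumour areas and 47.9 ± 2.77 CPM in normal areas (log2 0.46, adjusted p = 0.000363). Immt, which shapes the cristae, stood at 19.0 ± 3.01 CPM in tumour areas and 38.5 ± 3.75 CPM in normal areas (log2 -1.02 ± 0.12, adjusted p = 3.21e-05).

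For the cytosolic ribosome, the table held 71 cytosolic ribosomal protein genes, and 27 of them were tested, of which 16 were higher and 5 lower, beside 39.3% and 35.3% of all tested genes. The median log2 fold change was 0.48, beside -0.00 for the mitoribosomal genes, and it stood at 0.77 with library size alone and at 0.75 without a filter on low counts. Single genes ran from -4.55 to 1.24. The summed level of the 71 genes was 2710 to 3360 CPM in tumour areas and 1902 to 1936 CPM in normal areas. Only 38 of the 71 had more than 3 counts in all, so neither the sum nor the median stands for the whole class. These genes were chosen by symbol alone. Of 36 tested nuclear genes of respiratory chain subunits 8 were higher and 7 lower, with a median of 0.02. With library size alone 22 were higher and 2 lower, beside 3735 higher and 1689 lower of all 7020 tested genes. The difference between these lists was not tested.

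**Figure D5:**
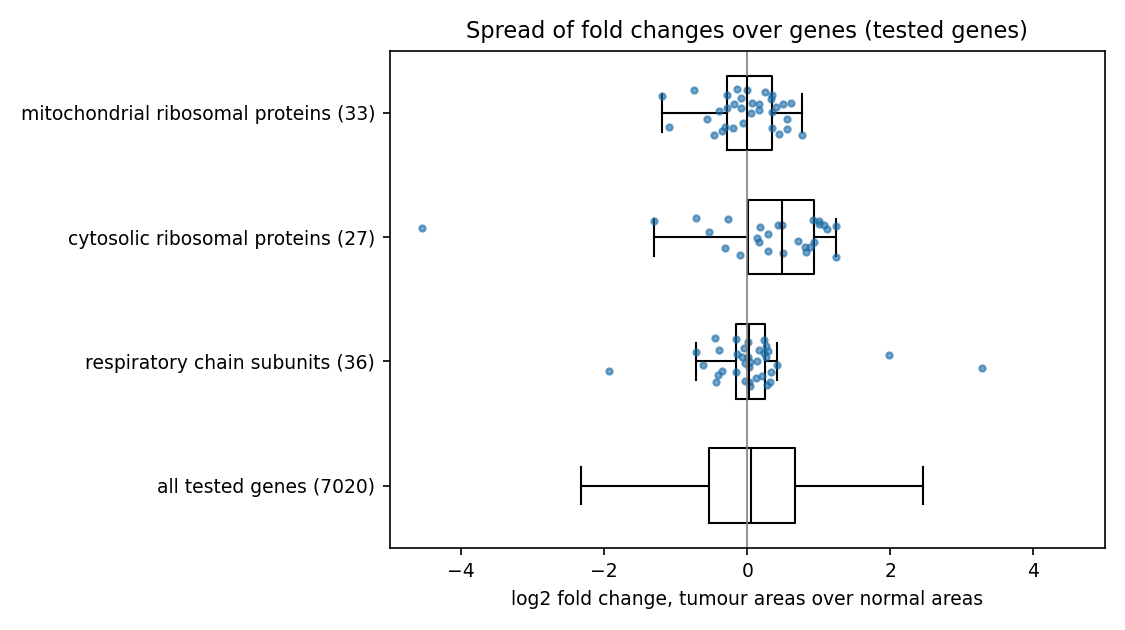
Log2 fold change of tumour over normal areas (x axis) for the tested genes of each group (y axis, number of genes in brackets); points are genes and boxes give the median and quartiles. The mitoribosomal genes centre on -0.00 with quartiles of -0.29 and 0.34, all tested genes have quartiles of -0.53 and 0.67, and the cytosolic ribosomal proteins centre on 0.48.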

How the data were processed

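Poly(A)-selected RNA of 9 renal cortex areas was made into TruSeq RNA libraries and read as 50-base pairs on a HiSeq 2500, per the labels' protocols. STAR 2.3, HTSeq, edgeR and the build mm9 are named in the submitters' processing notes; annotation and strand setting were not given in the sources used here. Raw read counts per gene were deposited by the authors, 1 column per area, and were checked to be whole numbers. Of 14052 rows 14026 matched a mouse symbol, and 3989 had no count in any area. The reference annotation lists 78 Mrpl and Mrps symbols without pseudogenes, of which 27 were not analysed here.

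Counts were fitted with edgeR 4.0.16 in R 4.3.3: filterByExpr by group (minimum count 10, minimum total 15, leaving 7020 genes), TMM factors and a quasi-likelihood fit of the group alone. The common biological coefficient of variation was 0.152. Benjamini-Hochberg adjusted p under 0.05 was a call. CPM were computed with these factors. Levels per kb used the median length of protein-coding transcripts in GENCODE vM21, which also gave overlapping exons. Pseudogene copies needed 90% identity over 200 bases in BLAST 2.17.0. The 19 alternatives covered scaling, filters, DESeq2 1.42.0, limma-voom (limma 3.58.1), the area letter, and areas left out. The fit was also run on simulated counts, in which a small part of the genes was changed, equally in both directions. That simulation held no shift in composition, so it cannot judge the scaling on which the split between higher and lower depended.

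The members and gene lists were chosen with earlier results of these data known. Named were the 10 called members with the largest change each way, the 5 highest and lowest per kb, 10 members of known role, members with an area that stood apart, untested members, all tested regulators and up to 2 called genes per other list and direction with at least 1 CPM. The other tested members were also named, so that each was accounted for. The 1 tested fat marker did not pass, though DESeq2 called it higher. Of 7 tested distal nephron markers 5 were lower (7 in DESeq2 and 6 with limma-voom), beside 35.3% of all tested genes.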

Additional observations from a re-analysis of the deposited data

Results flagged for a closer look

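In a few genes 1 area stood apart from the others of its group. Chance alone gives such a gap in about 1 in 20 groups. Both groups of each of the 33 tested genes were screened, so a few such gaps are within what chance gives. Mrpl18 stood at 108 CPM in tumour L4, against 116.1 to 118 CPM in the other tumour areas. Mrpl42 stood at 35.22 CPM in tumour L4, against 45.02 to 48.5 CPM in the others. Mrps31 stood at 30.35 CPM in tumour R4, against 23.16 to 24.5 CPM in the others. Mrpl12 stood at 161.1 CPM in normal L2, against 179.8 to 182.9 CPM in the other normal areas.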

How the results depend on the processing

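No paired analysis was made, since the labels match no tumour area to a normal area. The label R2 occurs in both groups, but under different sample numbers and genotypes. Of the 12 increases, 11 passed under all 19 alternatives, the exception being Mrpl18. Of the 11 decreases, Mrpl3, Mrpl9 and Mrpl47 did. Of the 10 genes that did not pass, Mrps26, Mrps31 and Mrps33 never passed. The number lower was 11 with TMM, 7 with upper-quartile factors, 3 with library size alone and 6 with the areas of letter R only. Beside these, all tested genes gave 3735 higher and 1689 lower with library size alone, in place of 2760 and 2476. Their number lower was also smaller than 2476 with upper-quartile factors and with letter R only. For the Mrpl genes library size alone gave 12 higher and 3 lower in place of 7 and 7, and for the Mrps genes the number lower was 2 with upper-quartile factors, 0 with library size alone and 1 with letter R only in place of 4. Leaving out 1 area in turn gave 2 to 4 Mrps genes lower, the lowest without normal L1. The mitoribosomal median was 0.29 with library size alone in place of -0.00. That scaling turned the direction of Mrpl22 (0.29), Mrpl35 (0.19), Mrpl44 (0.20), Mrpl39 (0.0010), Mrpl49 (0.0897), Mrps23 (0.15), Mrps25 (0.0005), Mrps27 (0.10) and Yy1 (0.11). With library size alone Mrps31, which never passed, also went from -0.06 to the positive side. The same scaling called 7 in place of 3 mitochondrial content genes and 5 in place of 2 tRNA charging enzymes higher, and 3 in place of 5 cytosolic ribosomal proteins lower. Without normal L1 or L2, 5 in place of 8 respiratory chain genes were higher. Over all tested genes the numbers higher and lower were also smaller without either of these areas. The causes were not tested. At these depths, genes of a few CPM such as Mrps33 and Mrps26 carry SEs of 0.33 and 0.23 on the log2 scale, so that changes of the usual size here were not detectable for them.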
